A study of Mus musculus with 9 samples.

Results

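The genes that restrain the mitogen-activated protein (MAP) kinases were followed in mouse group 2 innate lymphoid cells (ILC2s), lymphocytes of tissues that secrete type 2 cytokines. The set held 7 dual-specificity phosphatase genes (Dusp1, Dusp2, Dusp4, Dusp5, Dusp6, Dusp10 and Dusp14) and 3 genes of the Sprouty and Spred family (Spry1, Spry2 and Spred1). They were taken by symbol, and all 10 were present among the 23234 genes listed for each library. RNA sequencing covered 9 libraries in 3 groups of 3. The first group had been cultured with IL-33 and IFN-γ, the second with IL-33 and IL-27, and the comparison group with IL-33 alone. Every group therefore contained IL-33, a cytokine released by damaged tissue that activates ILC2s. Each cytokine was used at 10 ng/ml and the culture lasted 48 h. The cells came from fat-associated lymphoid clusters, the lymphoid aggregates of adipose tissue, of wild-type C57BL/6 mice whose age is not given in the sources used here. The labels leave it unstated whether the libraries of a group came from different mice or cultures, so the p-values below cover only the variation among these libraries, which may be technical. Levels are given in FPKM (fragments per kilobase of transcript, scaled by the authors to the mapped fragments).

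The MAP kinases ERK, JNK and p38 carry signals from cytokine and growth factor receptors, and they are switched on by phosphorylation. Dual-specificity phosphatases remove those phosphates: the products of Dusp1, Dusp2, Dusp4 and Dusp5 act mainly in the nucleus, that of Dusp6 acts on ERK in the cytoplasm, and that of Dusp10 acts on JNK and p38. Many of them are transcribed in response to the kinases they switch off, which makes them feedback inhibitors. Sprouty and Spred proteins act upstream, on the Ras and Raf step; Spred1 brings the Ras inhibitor neurofibromin to the membrane.

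The libraries were shallow. From the steps between low FPKM values, each held roughly 860585 to 974659 fragments, so that for a 2-kb transcript 1 fragment equalled 0.513 to 0.581 FPKM, and 3 fragments equalled 1.54 to 1.74 FPKM. All 15 ILC2 markers were detected, with summed levels of 6444 to 10974 FPKM with IFN-γ, 13027 to 15354 FPKM with IL-27 and 15415 to 22764 FPKM with IL-33 alone. The cytokine genes Il5 and Il13, both of which fell with IFN-γ (log2 fold changes -1.55 and -1.30, adjusted p 0.0167 and 0.0282 by limma), made up 60.1% to 89.0% of these sums. Il2ra also fell and Areg rose with IFN-γ, and Areg rose with IL-27. Il2ra had an adjusted p of 0.0795 with IL-27, or 0.00509 with the replicate number as a block (log2 fold change -0.84). The median log2 fold change of the 15 markers was 0.13 with IFN-γ and 0.21 with IL-27. Among markers of other cells, Cd4, Cd5, Pax5, Csf1r and Kdr were listed at 0 in every library, though other markers of the same cell types were detected. The 9 fibroblast markers summed to 5.55, 3.94 and 86.5 FPKM with IFN-γ, 9.49, 7.67 and 63.7 FPKM with IL-27 and 17.6, 3.10 and 36.2 FPKM with IL-33 alone (replicates 1, 2 and 3). Replicate 3 thus had the highest fibroblast sum in each group. The same held for the 8 mast cell and basophil markers, mostly Fcer1a. By replicate they summed to 0.0, 2.29 and 9.1 FPKM with IFN-γ, 2.51, 2.27 and 11.5 FPKM with IL-27 and 1.24, 1.13 and 5.7 FPKM with IL-33 alone. The 8 natural killer and ILC1 markers summed to 1.45 to 2.8, 0.519 to 0.8 and 0.0 to 2.1 FPKM in that order of groups. Pecam1, a surface molecule of endothelium and leukocytes, made up nearly all of the endothelial marker sum, with 158, 164 and 204 FPKM with IFN-γ, 106, 81.7 and 99.3 FPKM with IL-27 and 78.3, 66.1 and 49.1 FPKM with IL-33 alone. The 10 T cell markers, mostly Cd3g, summed to 37.0 to 84.2, 49.3 to 105.0 and 35.5 to 82.0 FPKM in the same order of groups. The 8 heat shock genes, mostly Hspa8, summed to 3412 to 4546, 3390 to 4370 and 4274 to 5728 FPKM. All 6 heat shock genes tested had negative log2 fold changes with either added cytokine (medians -0.44 with IFN-γ and -0.62 with IL-27). Of these, 0 passed without the replicate block. With it, 3 passed with IFN-γ and 4 with IL-27, where 4.66% and 1.78% of all genes were lower. The 6 B cell markers, mostly Cd79b, summed to 20.9 to 85.5, 33.2 to 57.7 and 34.5 to 41.5 FPKM, and the 10 macrophage and dendritic cell markers listed to 6.03 to 19.5, 1.16 to 17.6 and 3.55 to 10.3 FPKM. Their part in the differences described below was not tested. The immediate-early gene Fos stood at 49.3 FPKM in replicate 3 of IL-33 alone and between 0.499 and 8.7 FPKM in the other libraries.

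Dusp6 was the most abundant of the 10 genes by mean level in each group. It is a gene of chromosome 10 (ENSMUSG00000019960.6, chr10:98725865-98730122, plus strand; gene coordinates here are GENCODE vM1 on build mm9). It was read at 28.8, 44.7 and 88.6 FPKM with IFN-γ, at 53.7, 47.1 and 100.6 FPKM with IL-27 and at 22.0, 18.0 and 64.9 FPKM with IL-33 alone (replicates 1, 2 and 3). The group ranges overlapped, because replicate 3 was the highest library of every group. Dusp6 made up 46.6 to 73.5% of the summed FPKM of the 10 genes with IFN-γ, 59.7 to 68.9% with IL-27 and 25.9 to 46.1% with IL-33 alone. With IFN-γ and with IL-27 its range lay above that of every other gene of the set, and with IL-33 alone it overlapped that of Dusp1.

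Below Dusp6 came Spry1, Dusp1, Spred1, Dusp4 and Dusp10, and genes next to each other in the order of means within a group overlapped in range except Spry1 and Dusp1 with IFN-γ. With IFN-γ the means were 8.54 ± 0.644 FPKM for Spry1, 5.99 ± 0.976 FPKM for Dusp1, 4.56 ± 2.38 FPKM for Dusp10, 4.30 ± 0.457 FPKM for Spred1 and 3.39 ± 1.22 FPKM for Dusp4 (SD, n = 3). With IL-27 they were 11.2 ± 1.20 FPKM for Spry1, 9.06 ± 3.47 FPKM for Dusp1, 6.70 ± 1.74 FPKM for Spred1, 3.87 ± 1.34 FPKM for Dusp10 and 1.80 ± 1.28 FPKM for Dusp4 (SD, n = 3). With IL-33 alone they were 14.3 ± 11.6 FPKM for Dusp1, 13.6 ± 2.45 FPKM for Spry1, 12.0 ± 0.828 FPKM for Spred1, 8.17 ± 2.91 FPKM for Dusp4 and 6.34 ± 2.32 FPKM for Dusp10 (SD, n = 3). Dusp4 thus had a higher mean than Dusp10 with IL-33 alone and a lower one with either added cytokine, though their ranges overlapped in every group. Dusp5, Dusp2, Dusp14 and Spry2 lay near the limit of these libraries, though Dusp5, at 0.980 to 4.0 FPKM with IL-27, stood between Dusp10 and Dusp4 there.

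**Figure D1:**
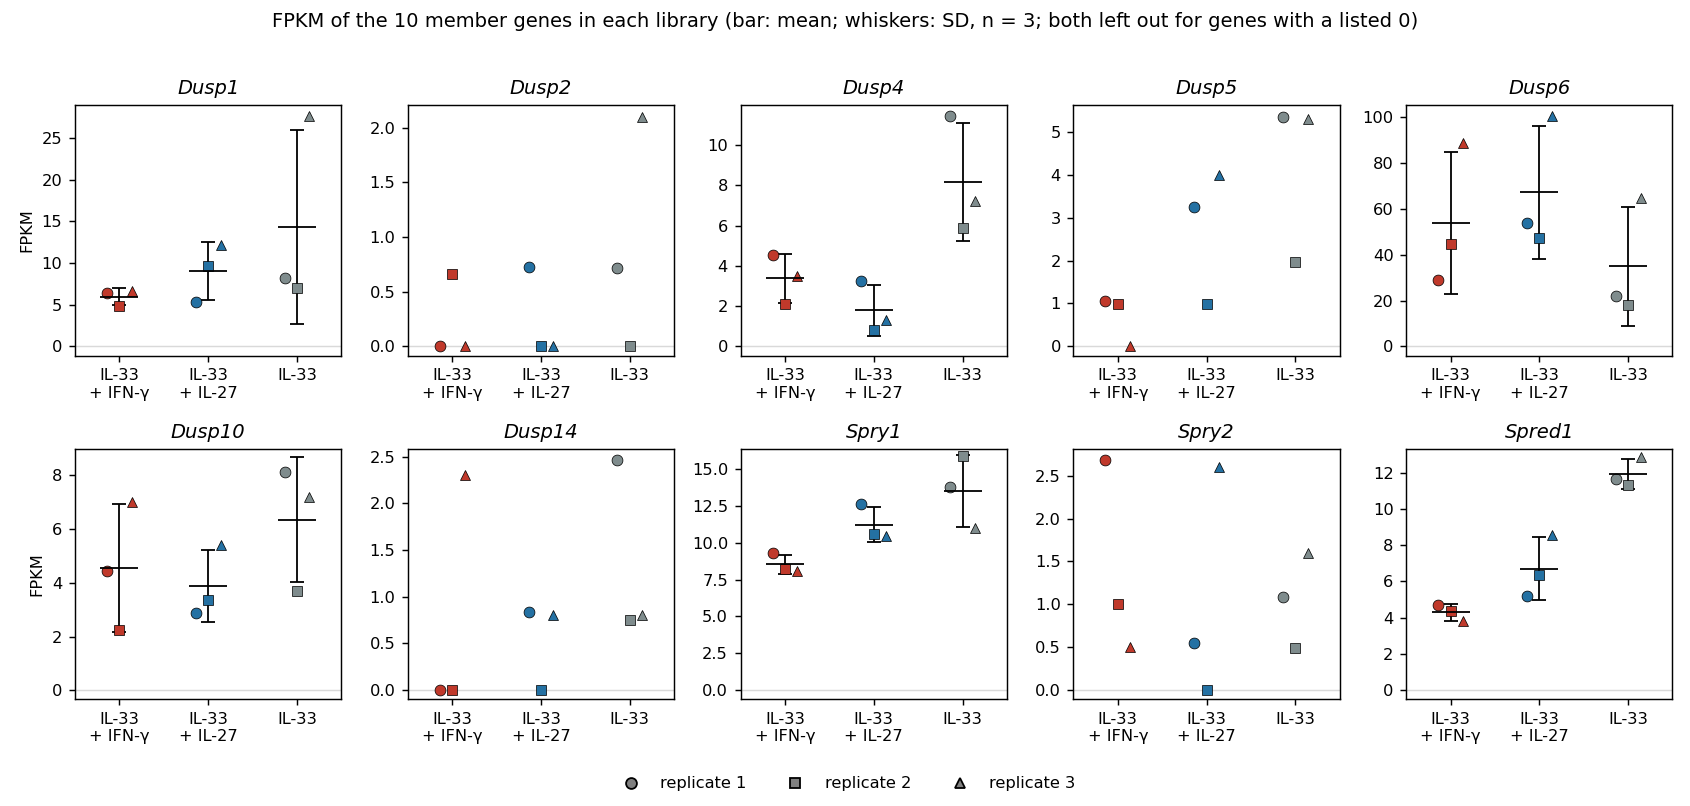
FPKM (vertical axis, linear, a scale for each panel) of the 10 genes in each library of the 3 groups; point shapes give the replicate number, bars the group mean and whiskers the SD of 3 libraries, both left out for genes with a listed 0. The 3 Spred1 values with IFN-γ, 3.8 to 4.70 FPKM, lie below the 3 with IL-33 alone, 11.3 to 12.9 FPKM, whereas Dusp6 is highest in replicate 3 of every group.

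The sequence before the transcription start was available for 9 of the 10 genes, all but Dusp4. It came from RefSeq windows of 250 bases before to 50 bases after the start (build GRCm38.p6). Of 8 motifs searched on both strands, 4 had a match in any of these windows. The cAMP response element TGACGTCA, bound by CREB, was found in the Dusp1 window at -143 to -136 from the start and in 1.79% of all 32851 windows. The E-box CACGTG, bound by basic helix-loop-helix factors, was found in the windows of Dusp1 and Dusp2 and in 7.15% of all windows. Dusp5 held 2 adjoining CArG boxes, the element of serum response factor, at -82 to -73 and -72 to -63, and 1.63% of all windows held at least 1. The GAS element TTCNNNGAA, bound by STAT factors downstream of IFN-γ and IL-27, was found in the Dusp14 window and in 8.3% of all windows. The IRF core GAAANNGAA (8.56% of all windows), the AP-1 site TGANTCA (7.81%), the ETS core CCGGAAG (8.86%) and the NF-kB site (5.8%) had no match in the 9 windows. A match is a run of letters and says nothing of binding. The 250 bases before the start are printed for Dusp1 and Dusp5, whose motif matches are in capitals, and for Dusp6 and Spred1, the genes with the highest level and with the clearest difference, which held no match. They are chr17:26508473-26508722 (minus strand), chr19:53528895-53529144 (plus strand), chr10:99262981-99263230 (plus strand) and chr2:117120821-117121070 (plus strand) in that order.
Dusp1: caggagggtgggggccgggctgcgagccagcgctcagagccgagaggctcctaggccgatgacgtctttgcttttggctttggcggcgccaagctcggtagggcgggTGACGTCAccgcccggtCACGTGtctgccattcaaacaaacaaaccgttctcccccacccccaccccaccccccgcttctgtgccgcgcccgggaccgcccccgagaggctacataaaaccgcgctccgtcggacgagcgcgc
Dusp5: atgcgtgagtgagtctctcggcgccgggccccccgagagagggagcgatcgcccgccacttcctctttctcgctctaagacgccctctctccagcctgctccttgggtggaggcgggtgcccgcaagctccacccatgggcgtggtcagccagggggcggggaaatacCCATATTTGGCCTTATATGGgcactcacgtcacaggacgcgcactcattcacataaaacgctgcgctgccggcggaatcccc
Dusp6: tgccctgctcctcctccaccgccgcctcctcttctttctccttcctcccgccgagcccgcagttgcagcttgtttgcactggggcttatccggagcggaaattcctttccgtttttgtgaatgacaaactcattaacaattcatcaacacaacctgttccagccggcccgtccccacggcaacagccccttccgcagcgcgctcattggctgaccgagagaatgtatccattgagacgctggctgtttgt
Spred1: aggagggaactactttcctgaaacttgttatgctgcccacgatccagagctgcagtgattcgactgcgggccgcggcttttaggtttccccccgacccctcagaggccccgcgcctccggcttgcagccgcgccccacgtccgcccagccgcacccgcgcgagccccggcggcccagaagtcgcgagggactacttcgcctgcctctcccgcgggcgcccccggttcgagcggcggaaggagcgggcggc

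The first comparison set IL-33 with IFN-γ against IL-33 alone, which shows how these genes stand when the type II interferon is added to the activating cytokine. Spred1 fell, and it was the only 1 of the 8 tested genes of the set with an adjusted p under 0.05. Dusp4, Dusp5, Spry1, Dusp1 and Dusp10 had lower values in all 3 replicate pairs but did not pass. Dusp6 had the higher value in all 3 pairs, and Spry2 was higher in 2 pairs and lower in 1. Dusp2 and Dusp14 averaged under 1 FPKM and were not tested. Testing used limma on log2(FPKM + 1) over 11014 genes, of which 2.91% passed in either direction and 0.717% were lower.

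Spred1 (ENSMUSG00000027351.8, chr2:116947110-117008015, plus strand) was read at 4.70, 4.38 and 3.8 FPKM with IFN-γ, against 11.65, 11.3 and 12.9 FPKM with IL-33 alone. The groups were far apart relative to the spread within each, and about 20.4 to 25.2 fragments stood behind each value with IFN-γ and 62.0 to 66.8 with IL-33 alone. This was a log2 fold change of -1.29 ± 0.23 (SE, limma), or 2.45-fold lower in FPKM + 1. The 95% interval was -1.81 to -0.78 and the adjusted p by limma was 0.0168. In bulk libraries, fewer cells that express the gene and less RNA per cell cannot be told apart. The adjusted p was 0.0519 to 0.0572 when any 1 of the IL-33 libraries was left out, 0.0632 and 0.0715 without IFN-γ replicate 2 or 3, and 0.109 with replicates 1 and 2 only; the log2 fold change over these settings ran between -1.33 and -1.17.

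Spry1, a Sprouty gene induced by growth factor signalling (ENSMUSG00000037211.5, chr3:37538869-37543520, plus strand), had 9.28, 8.24 and 8.1 FPKM with IFN-γ and 13.8, 15.9 and 11.0 FPKM with IL-33 alone. The groups did not overlap, but the log2 fold change of -0.60 ± 0.21 (95% interval -1.06 to -0.14) did not pass (adjusted p 0.194). Spry2, its paralog (ENSMUSG00000022114.4, chr14:106291166-106296036, minus strand), had 2.68, 1.00 and 0.5 FPKM with IFN-γ and 1.08, 0.494 and 1.6 FPKM with IL-33 alone. These Spry2 values stand for about 0.9 to 5.0 fragments, and the interval of its log2 fold change, -1.08 to 1.39, leaves the direction unknown. The 3 Sprouty and Spred genes together summed to 12.4 to 16.7 FPKM with IFN-γ and to 25.5 to 27.7 FPKM with IL-33 alone. That these sums did not overlap follows from Spred1 and Spry1, which made up most of each sum and did not overlap themselves.

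Among the nuclear phosphatase genes, Dusp4 (ENSMUSG00000031530.6, chr8:35870351-35882948, plus strand), whose product acts on ERK and JNK, had 4.54, 2.12 and 3.5 FPKM with IFN-γ and 11.4, 5.86 and 7.2 FPKM with IL-33 alone. The groups did not overlap. The log2 fold change was -1.06 ± 0.39 (95% interval -1.94 to -0.17), with an adjusted p of 0.233 by limma. With the replicate number as a block it was 0.0263. Dusp4 and Spred1 (0.00922) were the 2 genes of the set that passed in that fit, both lower, where 11.2% of all genes passed and 4.66% were lower.

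Dusp5, which encodes a nuclear phosphatase of ERK (ENSMUSG00000034765.6, chr19:53603599-53616921, plus strand), had 1.06 and 0.990 FPKM in the first 2 replicates with IFN-γ and was listed at 0 in the third. With IL-33 alone it had 5.35, 1.96 and 5.3 FPKM. The groups did not overlap, with at most about 2.3 fragments per library on the IFN-γ side. Its log2 fold change of -1.62 ± 0.49 did not pass (adjusted p 0.144), and it was -2.97 with a pseudocount of 0.1 in place of 1, since a listed 0 enters the mean.

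Dusp1, an immediate-early phosphatase gene for all 3 kinase classes (ENSMUSG00000024190.6, chr17:26642535-26645464, minus strand), had 6.39, 4.88 and 6.7 FPKM with IFN-γ and 8.19, 6.96 and 27.7 FPKM with IL-33 alone. The value of 27.7 FPKM belongs to the library with 49.3 FPKM of Fos and 137.0 FPKM of Egr1, another immediate-early gene. The log2 fold change was -0.88 ± 0.47 (adjusted p 0.420), and -0.30 without that library. The part of that library's immediate-early genes in the Dusp1 difference was not tested beyond leaving it out.

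For Dusp6 the log2 fold change with IFN-γ was 0.70 ± 0.53, with a 95% interval of -0.49 to 1.88 and an adjusted p of 0.596. By replicate number, the IFN-γ library held more than its IL-33 partner in all 3 pairs, as did 24.4% of all genes tested. Dusp10 (ENSMUSG00000039384.8, chr1:185837181-185899515, plus strand) had 4.43, 2.25 and 7.0 FPKM with IFN-γ and 8.11, 3.71 and 7.2 FPKM with IL-33 alone. These groups overlapped and the log2 fold change was -0.44 ± 0.40 (adjusted p 0.670).

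Over the set, 5 of the 8 tested genes (Dusp1, Dusp4, Dusp5, Spry1 and Spred1) lay wholly below IL-33 alone, against 8.65% of all genes tested. Lower values in all 3 pairs were found for 6 of the 8, against 21.1% of all genes. The median log2 fold change was -0.60 over the 3 Sprouty and Spred genes, beside 0.03 over all genes. Over the 5 tested phosphatase genes it was -0.88, which is the value of Dusp1, and -0.33 without IL-33 replicate 3 (0.04 over all genes).

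The remaining phosphatase genes were close to the detection limit in all 3 groups. Dusp2, a phosphatase gene of activated lymphocytes (ENSMUSG00000027368.6, chr2:127161895-127164112, plus strand), was listed at 0 in 5 of the 9 libraries; the others had 0.666 FPKM with IFN-γ, 0.729 FPKM with IL-27 and 0.719 and 2.1 FPKM with IL-33 alone. Dusp14, which encodes a small atypical phosphatase (ENSMUSG00000018648.9, chr11:83861543-83882763, minus strand), had 0, 0 and 2.3 FPKM with IFN-γ, 0.833, 0 and 0.8 FPKM with IL-27 and 2.46, 0.751 and 0.8 FPKM with IL-33 alone. Dusp2 values stood for at most about 2.9 fragments and Dusp14 values for at most about 3.4, so that differences in these genes were not detectable at this depth.

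The second comparison set IL-33 with IL-27 against IL-33 alone. IL-27, related to IL-12, signals through STAT factors. None of the 8 tested genes passed, where 1.03% of all genes did, and 2 had an unadjusted p under 0.05 (Dusp4 and Spred1), as did 9.51% of all genes. With the replicate number as a block, 2 passed, Dusp4 lower and Dusp6 higher, where 5.15% of all genes passed, 1.78% lower and 3.37% higher. Both comparisons with IL-33 alone use the same 3 control libraries, so their values are not independent of each other.

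Dusp4 had 3.25, 0.838 and 1.3 FPKM with IL-27, against 11.4, 5.86 and 7.2 FPKM with IL-33 alone. All 3 IL-27 libraries were below every IL-33 library, with about 2.2 to 7.9 fragments each against 15.7 to 27.7. Its log2 fold change was -1.76 ± 0.39 (95% interval -2.64 to -0.88), or 3.39-fold lower in FPKM + 1. The group means were 1.80 and 8.17 FPKM. Its adjusted p was 0.0863 by limma, and 0.00528 with the replicate number as a block.

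Dusp6 stood at 53.7, 47.1 and 100.6 FPKM with IL-27 and at 22.0, 18.0 and 64.9 FPKM with IL-33 alone, higher in all 3 pairs but with overlapping groups. Higher values in all 3 pairs were found for 23.1% of all genes. The log2 fold change was 1.07 ± 0.53 (95% interval -0.11 to 2.26), or 2.1-fold higher in FPKM + 1. Its adjusted p was 0.579 without the replicate block and 0.0278 with it. Fibroblast marker sums were also highest in replicate 3, at 63.7 FPKM with IL-27 and 36.2 FPKM with IL-33 alone. So were the mast cell and basophil sums, at 11.5 and 5.7 FPKM. The part of these cells in the Dusp6 values was not tested. With replicates 1 and 2 only, the Dusp6 log2 fold change was 0.82 for IFN-γ and 1.30 for IL-27 (adjusted p 0.0821 for IL-27 with the block). In those libraries the blocked adjusted p of Dusp4 was 0.0626 with IL-27 and 0.0991 with IFN-γ.

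Spred1 had 5.17, 6.34 and 8.6 FPKM with IL-27, below all 3 values of IL-33 alone (11.65, 11.3 and 12.9 FPKM). The log2 fold change of -0.77 ± 0.23 (95% interval -1.29 to -0.26) did not pass (adjusted p 0.242, and 0.0922 with the block). Dusp4 and Spred1 were the 2 of 8 genes whose IL-27 libraries lay wholly below IL-33 alone, against 5.72% of all genes. Lower values in all 3 pairs were found for 5 of the 8, Dusp4, Dusp5, Dusp10, Spry1 and Spred1, against 19.5% of all genes.

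The groups overlapped for the remaining genes. Spry1 had 12.6, 10.6 and 10.5 FPKM with IL-27 and 13.8, 15.9 and 11.0 FPKM with IL-33 alone (log2 fold change -0.24, adjusted p 0.791). Dusp1 had 5.34, 9.65 and 12.2 FPKM with IL-27 and 8.19, 6.96 and 27.7 FPKM with IL-33 alone, a log2 fold change of -0.41 that became 0.17 without the third IL-33 library. Dusp5 had 3.25, 0.980 and 4.0 FPKM with IL-27 and 5.35, 1.96 and 5.3 FPKM with IL-33 alone (log2 fold change -0.50, adjusted p 0.831). Dusp10 had 2.88, 3.34 and 5.4 FPKM with IL-27 and 8.11, 3.71 and 7.2 FPKM with IL-33 alone (-0.57, adjusted p 0.732). Spry2 was listed at 0 in IL-27 replicate 2 and had 0.548 and 2.6 FPKM in the other IL-27 libraries, which overlapped the IL-33 values.

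**Figure D2:**
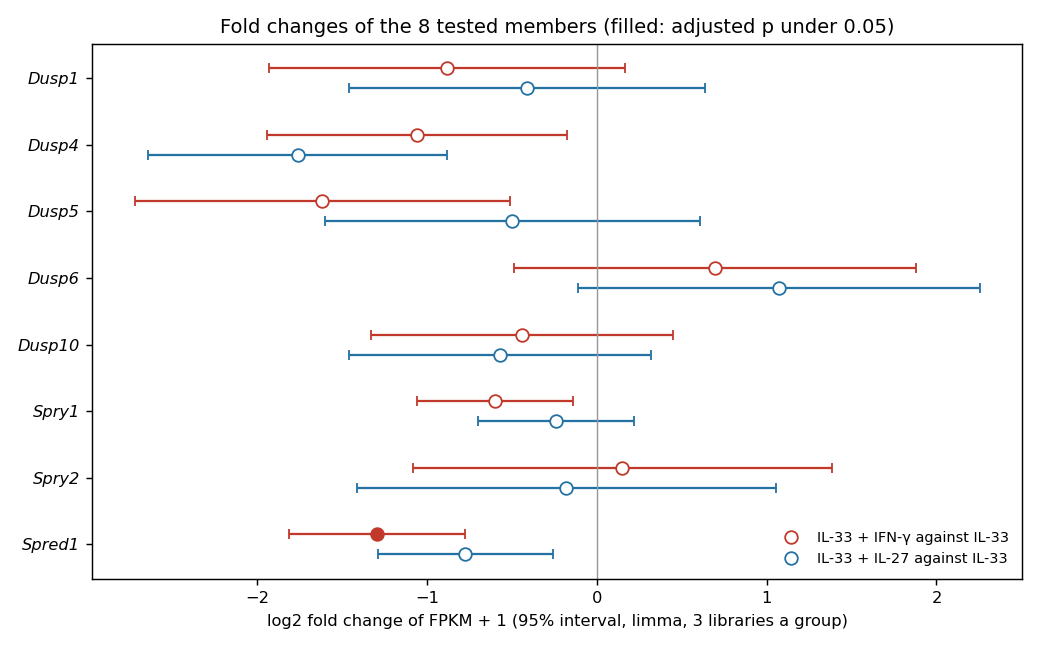
Log2 fold change of FPKM + 1 (horizontal axis) of the 8 tested genes for IL-33 with IFN-γ and for IL-33 with IL-27, each against IL-33 alone; points are limma estimates from 3 libraries a group, lines the 95% intervals, and a filled point marks an adjusted p under 0.05. Spred1 with IFN-γ, at -1.29, is the filled point, and the Dusp6 estimates, 0.70 and 1.07, have intervals that include 0.

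The direct comparison of IL-33 with IFN-γ against IL-33 with IL-27 asks whether the added cytokines differed from each other. No gene of the set passed, and 0.0% of all genes did by limma; 483 genes (4.39%), 2 of the set among them (Dusp5 and Spred1), had an unadjusted p under 0.05. With the replicate block 20 genes passed, 0.182% of those tested, none of them from this set. Spred1 had 4.70, 4.38 and 3.8 FPKM with IFN-γ against 5.17, 6.34 and 8.6 FPKM with IL-27, without overlap, a log2 fold change of -0.52 ± 0.23 (95% interval -1.04 to -0.0029, adjusted p 1.00). Spry1 also did not overlap, with 9.28, 8.24 and 8.1 FPKM with IFN-γ against 12.6, 10.6 and 10.5 FPKM with IL-27 (log2 fold change -0.36, 95% interval -0.82 to 0.10). These 2 genes, of 8, lay wholly lower with IFN-γ, against 4.03% of all genes. Dusp4 ran the other way, higher with IFN-γ in all 3 pairs (4.54, 2.12 and 3.5 FPKM against 3.25, 0.838 and 1.3 FPKM), as did 18.0% of all genes, and its groups overlapped. For Dusp4 the log2 fold change was 0.70 ± 0.39. Dusp6, Spry1 and Spred1 were lower with IFN-γ than with IL-27 in all 3 pairs, against 15.7% of all genes.

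Within single libraries, levels of Dusp6 and Dusp4, both of which encode phosphatases of ERK, were also set against each other. The ratio of Dusp6 to Dusp4 FPKM was 6.34, 21.1 and 25.3 with IFN-γ, 16.5, 56.2 and 77.4 with IL-27 and 1.92, 3.06 and 9.01 with IL-33 alone. The IL-27 ratios lay wholly above those of IL-33 alone, and the IFN-γ ratios overlapped them only through IL-33 replicate 3. By replicate number the ratio was higher than with IL-33 alone in all 3 pairs for each cytokine. The ratio of Dusp6 to Spred1 was 6.13, 10.2 and 23.3 with IFN-γ, 10.4, 7.43 and 11.7 with IL-27 and 1.89, 1.58 and 5.03 with IL-33 alone, without overlap for either cytokine. The ratios were chosen after the levels had been seen and carry no test. The ratio of Spred1 to Spry1 was 0.507, 0.532 and 0.469 with IFN-γ, 0.409, 0.598 and 0.819 with IL-27 and 0.845, 0.714 and 1.17 with IL-33 alone, overlapping for IL-27 and not for IFN-γ.

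**Figure D3:**
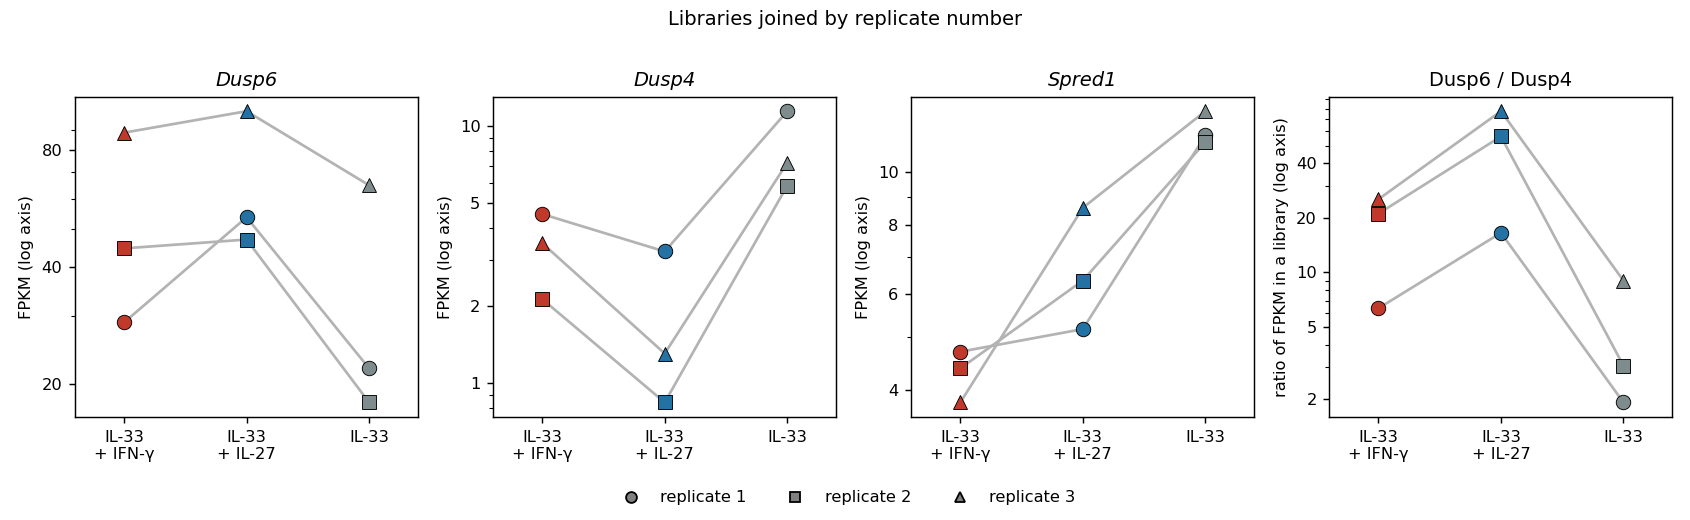
FPKM of Dusp6, Dusp4 and Spred1 and the Dusp6 to Dusp4 ratio (vertical axes, log scale) in each library of the 3 groups, with grey lines joining libraries of the same replicate number. All 3 lines of Dusp6 end lower at IL-33 alone (18.0 to 64.9 FPKM), and all 3 lines of Dusp4 and of Spred1 end higher there.

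The genes whose levels most resembled those of Spred1 over the 9 libraries were Nsf (Pearson r of log2(FPKM + 1) 0.966), Rassf1 (0.966) and Egfr (0.955) out of the genes averaging 5 FPKM or more. The libraries share their treatment groups, so any gene that separates the groups in the same order scores highly. Nsf, the ATPase that recycles membrane fusion complexes, had 44.2, 45.8 and 38.4 FPKM with IFN-γ, 53.0, 59.7 and 63.3 FPKM with IL-27 and 82.2, 103.8 and 114.6 FPKM with IL-33 alone. Egfr, the receptor of epidermal growth factor and amphiregulin, had 11.8, 13.3 and 12.6 FPKM with IFN-γ, 16.6, 13.4 and 20.8 FPKM with IL-27 and 32.1, 31.7 and 39.1 FPKM with IL-33 alone. Nsf, Rassf1 and Egfr were chosen by their correlation with Spred1 over the same libraries, so group differences were built into the choice. Their p-values, with or without the replicate block, are therefore descriptions and not evidence of a fall. Nsf and Egfr were lower with IFN-γ, by log2 fold changes of -1.20 for Nsf (adjusted p 0.00548) and -1.37 for Egfr (adjusted p 0.00559). With IL-27 neither passed without the replicate block (Nsf -0.75, adjusted p 0.102; Egfr -0.99, adjusted p 0.0583), and both passed with it (0.0220 and 0.0128). Rassf1, a tumour suppressor gene with a Ras association domain, had 19.6, 19.0 and 20.2 FPKM with IFN-γ against 27.3, 30.7 and 31.6 FPKM with IL-33 alone, and passed only with the block (log2 fold change -0.58, adjusted p 0.105 without it and 0.0224 with it).

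No other gene of these families passed without the block. Of 20 other dual-specificity and MAP kinase phosphatase genes, 14 were tested and 0 passed with either cytokine; with the block 2 passed with IFN-γ, Dusp28 and Ppp2ca in opposite directions, and 0 with IL-27 (11.2% and 5.15% of all genes passed in that fit). Their median log2 fold change was -0.19 with IFN-γ and -0.06 with IL-27. Of 4 other Sprouty and Spred genes only Spred2 was tested, at 10.6, 7.77 and 10.2 FPKM with IFN-γ, 9.66, 16.8 and 16.2 FPKM with IL-27 and 14.1, 13.6 and 22.2 FPKM with IL-33 alone. Spred2 was wholly lower with IFN-γ, at a log2 fold change of -0.72 that did not pass (adjusted p 0.246), and its log2 fold change with IL-27 was -0.22. Spry3 was listed at 0 throughout, Spry4 was above 0 only in IL-33 replicate 1 (0.232 FPKM), and Spred3 reached 1.7 FPKM.

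None of the kinase genes named here passed without the replicate block. Mapk3, which encodes ERK1, had 46.4, 51.7 and 53.8 FPKM with IFN-γ, 55.3, 51.1 and 55.9 FPKM with IL-27 and 32.4, 37.4 and 53.7 FPKM with IL-33 alone. The ranges overlapped for either cytokine, with log2 fold changes of 0.32 with IFN-γ and 0.42 with IL-27. Those of the p38 gene Mapk14 were 0.14 and -0.20, of the JNK gene Mapk8 0.31 and 0.17, of Map2k1 0.10 and 0.16 and of Map2k2 0.06 and 0.24 (IFN-γ, then IL-27). Of 30 tested genes of the Ras and ERK cascade 0 passed with either cytokine, with medians of -0.02 (IFN-γ) and 0.01 (IL-27). With the block, 3 passed with IFN-γ and 1 with IL-27, beside 11.2% and 5.15% of all genes. Rasgrp1, a Ras activator of lymphocytes, was higher with both (log2 fold changes 1.72 and 1.68). The other 2 that passed with IFN-γ, the Ras gene Hras1 and Rps6ka3, were lower. Of 27 tested genes of the JNK and p38 cascades 0 passed with either cytokine. Under the block 3 passed with IFN-γ and 1 with IL-27, again beside 11.2% and 5.15% of all genes.

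Among genes listed as dependent on ERK, Phlda1 fell with both cytokines. The list was not split by whether ERK raises or lowers a gene, so its medians and signs have no single expected direction. Of 28 listed, 21 were tested, and 2 fell with IFN-γ and the same number with IL-27, Phlda1 and Egr3 in each case, with 0 higher; 0.717% and 0.118% of all genes were called lower. Etv4, also tested, lay near the filter on low values, with means of 1.07 FPKM (IFN-γ), 0.328 FPKM (IL-27) and 1.86 FPKM (IL-33 alone). Egr3 and Egr2 averaged under 1 FPKM with either added cytokine and passed that filter only through IL-33 alone. They therefore had to differ, and the count and medians of the 21 are descriptions only. Those medians were -0.66 with IFN-γ and -0.59 with IL-27, beside 0.03 and 0.01 over all genes tested. Over all 28 without the filter they were -0.38 and -0.26, beside 0.01 and 0.00 over all genes, with 17 and 20 negative log2 fold changes. Phlda1, a pleckstrin homology-like gene induced by growth factors, had 5.78, 8.62 and 11.6 FPKM with IFN-γ, 10.0, 12.8 and 9.4 FPKM with IL-27 and 36.0, 41.5 and 34.4 FPKM with IL-33 alone. Its log2 fold changes were -2.03 ± 0.25 with IFN-γ (adjusted p 0.00237) and -1.71 ± 0.25 with IL-27 (adjusted p 0.0117). The IL-27 call for Phlda1 was lost without IL-33 replicate 2 (0.0661), IL-27 replicate 1 (0.0583) or IL-27 replicate 3 (0.0618). With the block, 5 of the 21 passed with IFN-γ and 3 with IL-27, all lower, where 4.66% and 1.78% of all genes were lower. Egr3 was among them in each case, so these counts are also descriptions only. Egr3, an early growth response factor, was at most 0.833 FPKM with either added cytokine and listed at 0 in 3 of those 6 libraries, against 5.87, 4.61 and 9.1 FPKM with IL-33 alone. Its log2 fold changes by limma were -2.30 (adjusted p 0.0190) and -2.59 (adjusted p 0.0192). With a pseudocount of 0.1 the adjusted p was 0.156 for IFN-γ and 0.117 for IL-27. Because Egr3 passed the filter only through IL-33 alone, its p-values are descriptions and not evidence of a fall. For Egr3 with IFN-γ, leaving out IL-33 replicates 1 or 3, or IFN-γ replicates 2 or 3, gave adjusted p values of 0.0521 to 0.0715. With IL-27, leaving out any 1 of the IL-33 libraries, or IL-27 replicates 1 or 3, gave 0.0610 to 0.0884.

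Egr1, another early growth response gene, had 1.41, 0.985 and 2.7 FPKM with IFN-γ, 2.16, 1.62 and 17.1 FPKM with IL-27 and 11.7, 2.92 and 137.0 FPKM with IL-33 alone. With IFN-γ the Egr1 log2 fold change was -2.87, with an adjusted p of 0.268 by limma, or 0.0343 with the replicate block. With any 1 library left out, without the block, the Egr1 log2 fold change lay between -4.01 and -1.44 and did not pass. For Fos the IFN-γ log2 fold change was -1.44, and 0.12 without IL-33 replicate 3. Myc had 121.9, 86.3 and 69.4 FPKM with IFN-γ, 127.8, 62.8 and 59.2 FPKM with IL-27 and 114.5, 88.8 and 62.1 FPKM with IL-33 alone, log2 fold changes of 0.07 and -0.13.

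Inhibitors of other pathways were set beside them. Of 24 tested negative regulators of receptor signalling, 1 passed with IFN-γ, beside 2.91% of all genes. This was Socs1, the interferon-induced inhibitor of JAK kinases, and it was higher. Socs1 had 30.9, 50.1 and 41.1 FPKM with IFN-γ, 16.3, 14.7 and 14.2 FPKM with IL-27 and 8.01, 4.59 and 3.9 FPKM with IL-33 alone. The log2 fold changes of Socs1 were 2.71 ± 0.27 with IFN-γ (adjusted p 7.07e-04) and 1.35 ± 0.27 with IL-27 (adjusted p 0.0520, and 0.0278 with the block; 0.0270 without IL-33 replicate 1). With the block 3 of the 24 passed with IFN-γ, Socs1 higher and Socs2 and Socs3 lower, and 1 with IL-27, beside 11.2% and 5.15% of all genes. Socs3 was also lower with IFN-γ than with IL-27 under the block (log2 fold change -1.96, adjusted p 0.0247, and 1.0 without it). Of 18 genes of IL-33 receptor signalling, 1 passed with each cytokine, beside 2.91% (IFN-γ) and 1.03% (IL-27) of all genes. Relb, a subunit of NF-kB, was higher with both (log2 fold changes 0.96 and 0.94, adjusted p 0.0172 and 0.0395 by limma). For Relb with IFN-γ, leaving out IL-33 replicates 1 or 2, or any 1 of the IFN-γ libraries, gave adjusted p values of 0.0618 to 0.0752. With IL-27, leaving out any 1 library except IL-33 replicate 3 gave 0.0625 to 0.156. With the block, 5 of the 18 passed with IFN-γ and 4 with IL-27, in both directions, beside the same 11.2% and 5.15%. The IL-33 receptor gene Il1rl1 had 253, 303 and 435 FPKM with IFN-γ, 415, 549 and 976 FPKM with IL-27 and 384, 478 and 846 FPKM with IL-33 alone. Il1rl1 passed with IFN-γ only in the fit with the replicate block (log2 fold change -0.74, adjusted p 0.387 without it and 0.00486 with it), and likewise against IL-27 (-0.91, 0.0361 with it).

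**Figure D4:**
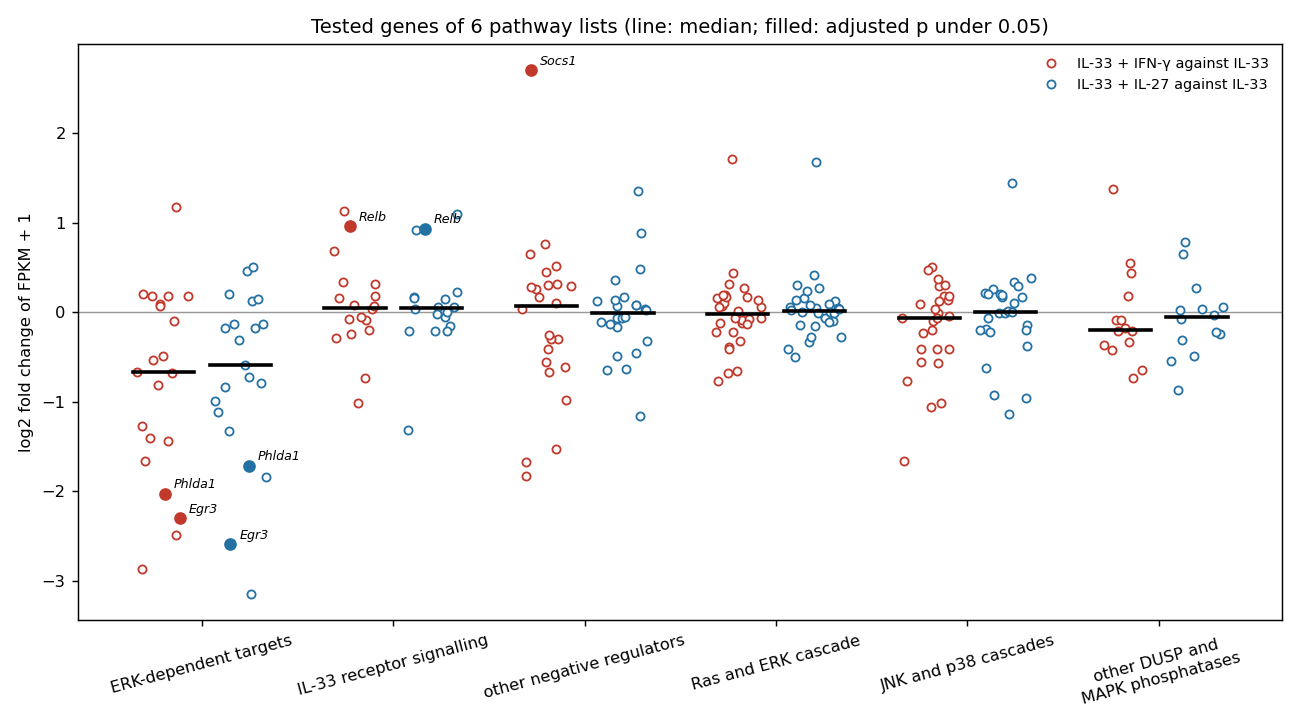
Log2 fold change of FPKM + 1 (vertical axis) of every tested gene in 6 lists, for each added cytokine against IL-33 alone; lines are list medians and filled points have an adjusted p under 0.05. The ERK-dependent targets have medians of -0.66 and -0.59, and the medians of the other lists lie between -0.19 and 0.07. Those of the ERK-dependent targets are descriptions only, since Egr2 and Egr3 passed the filter on low values only through IL-33 alone. Without that filter they were -0.38 and -0.26.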

How the data were processed

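RNA of cultured ILC2s was sequenced from TruSeq libraries, per the labels' protocols. Per the submitters' processing notes, Bowtie2 2.1.0, TopHat2 2.0.8 and Cufflinks 2.1.1 were used with build mm9. The deposited tables hold 1 value per gene and library; that these are FPKM made by the authors was inferred from Cufflinks and from the values, since the tables do not name the unit. Commas grouping digits in the replicate 3 tables were removed. Depth was estimated from the steps between low values with GENCODE vM1 lengths, checked on simulated libraries, and is approximate, as are the fragment numbers given per gene.

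Values were analysed as log2(FPKM + 1), which understates changes of low genes. The 11014 genes averaging 1 FPKM or more entered a limma 3.58.1 fit of all 3 groups (lmFit, contrasts.fit and a trended eBayes; two-sided; R 4.3.3), tested on simulated data first, with Benjamini-Hochberg adjustment over all tested genes within a comparison and a threshold of 0.05. Tables used pandas 2.3.3 and numpy 2.4.6 under Python 3.11.15, and figures matplotlib 3.10.9. The labels number the libraries 1 to 3 in each group. Deviations from group means correlated at 0.128 to 0.367 in all 9 pairs of the same number and at -0.298 to -0.025 in the 18 other pairs. Deviations within a group sum to 0, so the second range is not independent of the first. The number was taken as a pairing from these same data, since the labels do not state one. A fit with it as a block is given where it changes a result of the set, and mostly as counts for the pathway lists.

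The genes of the set, the gene lists and the markers were chosen with earlier results of these data known. The text names the 10 genes of the set in every comparison, up to 4 passing genes of each pathway list, all other Sprouty and Spred genes, a set of named kinases and immediate-early genes, and the 3 genes most correlated with a passing gene of the set. A kinase gene of that rule is not reported here. Genes that passed only with the block were named after their values were seen. Alternatives were other pseudocounts, filters and scalings, no intensity trend, only the groups compared, the block, and left-out libraries.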

Additional observations from a re-analysis of the deposited data

How the results depend on the processing

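The fall of Spred1 with IFN-γ kept its direction under all 20 alternatives (log2 fold change -1.46 to -1.17) and an adjusted p under 0.05 in 13 of them; it was lost with some libraries left out, by limma, as given above (-1.35 to -1.22 over all left-out libraries). Of the set, 1 gene passed with IFN-γ, against 2 with the replicate block, 0 with replicates 1 and 2 only (with or without the block) and 0 to 1 with a library left out. With IL-27 0 passed, against 2 with the replicate block. Over all genes, 320 passed with IFN-γ, against 187 when only the 2 groups were fitted, 1230 with the replicate block, 176 with replicates 1 and 2 only (459 with the block) and 161 to 303 with a library left out. With IL-27 the counts were 113, 63, 567, 68 (188 with the block) and 50 to 128 in the same order. In the direct comparison 0 genes passed, against 2 without a filter on low values, 2 without an intensity trend, 20 with the replicate block, 2 with replicates 1 and 2 only (3 with the block) and 0 to 2 with a library left out. The signs of several differences that did not pass reversed, and the cause was not tested. With IFN-γ, left-out libraries moved the log2 fold change of Spry2 between -0.062 and 0.435, Mapk14 between -0.014 and 0.27, Map2k1 between -0.072 and 0.28, Map2k2 between -0.013 and 0.11, Fos between -2.39 and 0.12 and Myc between -0.16 and 0.28. Quantile normalisation gave -0.064 for Spry2, rescaling without small RNAs gave -0.023 for Map2k2 and -0.013 for Myc, and replicates 1 and 2 only gave -0.10 for Mapk14, with or without the block. With IL-27, left-out libraries moved Dusp1 between -0.76 and 0.17, Spry2 between -0.39 and 0.23, Spred2 between -0.35 and 0.02, Map2k1 between -0.016 and 0.34, Il1rl1 between -0.17 and 0.50, Fos between -1.74 and 0.77 and Myc between -0.49 and 0.072. In the direct comparison they moved Dusp10 between -0.18 and 0.47 and Spry2 between -0.084 and 0.61. The medians of the ERK-dependent genes without the filter and of the phosphatase genes without a library were added after the data had been seen. The calls that the replicate block changed are given beside the results of the set, and for the pathway lists as counts with some genes named. With 3 libraries a group an exact permutation test of a single gene cannot go below 0.10, and at about 860585 to 974659 fragments a library, differences in Dusp2, Dusp14, Spry2 and Dusp5 rest on few fragments.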
